A study of Mus musculus with 1615 samples.

Results

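The Hox genes of the mouse were followed here across the cell classes of the colon wall in single-cell RNA-seq. Every row of the count table whose Ensembl gene identifier carries a symbol made of Hox, a cluster letter a, b, c or d and a number was taken, which gave 39 of 46517 gene identifiers: 11 Hoxa genes on chromosome 6, 10 Hoxb genes on chromosome 11, 9 Hoxc genes on chromosome 15 and 9 Hoxd genes on chromosome 2. The naming rule itself uses no measured value. The series holds 1615 single cells sorted into plates and sequenced with the full-length Smart-Seq2 protocol, from 11 adult mice of 5 reporter lines: ACTA2GFP (2 mice, 13 cells), CSPG4dsRED (1 mouse, 117 cells), ACTA2GFP:CSPG4dsRED (3 mice, 1106 cells), PDGFRaH2bGFP (2 mice, 91 cells) and PDGFRbGFP (3 mice, 288 cells). The labels name no treatment and give ages of 8 to 30 weeks; 9 mice were male and 2 (20GG79:1 and 20GG95:3) female, while the series text names males only and a narrower age range. A line is named for the gene whose promoter drives its fluorescent protein (smooth muscle actin, the pericyte proteoglycan Cspg4, and the PDGF receptors alpha and beta), and the gate that admitted each cell to a plate is not given in the sources used here, so shares of classes among cells say nothing of the tissue. The tissue label is colon, but the extraction protocol names heart as the dissociated organ. Epithelial cells with Cdx1 and Cdx2, the transcription factors that mark intestinal epithelium, and visceral smooth muscle cells with Actg2, Myh11 and Cnn1 were present.

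Hox genes encode homeodomain transcription factors that give cells along the head-to-tail axis their positional identity. They lie in 4 clusters, and genes at matching places in different clusters (paralogs) share a number: low numbers are used toward the head and high numbers toward the tail, in the order in which they sit on the chromosome. Their proteins bind DNA together with partners of the Pbx and Meis families, Cdx factors switch on posterior members in the hindgut, Polycomb proteins keep them silent and the Kmt2a complex keeps them active. In the gut, the mesenchyme of the wall carries a nested Hox code, with the posterior Hoxa and Hoxd genes in the hindgut. Hoxb13 is a posterior gene known from the epithelium of the distal colon and the prostate, and enteric glia descend from neural crest cells that leave the hindbrain and neck and migrate down the gut.

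Promoters were read where the table had them. Of the 39 genes, 22 had an entry in the promoter table of RefSeq (GRCm38.p6), 24 start sites in all, and Hoxb2, Hoxb9 and Hoxb13, on which several comparisons below turn, were not among them. The 250 bases before the start of 4 of them are shown 5′ to 3′ on the coding strand, since these genes stand for 4 different patterns: Hoxa11 (chr6:52245811-52246060, minus strand) was read in smooth muscle, pericytes, fibroblasts and epithelium and hardly in endothelium, Hoxa5 (chr6:52204588-52204837, minus strand) led the glial profile among the genes that passed the rule for expression, Hoxd8 (chr2:74704365-74704614, plus strand) was highest in lymphatic endothelium, and Hoxd4 (chr2:74721728-74721977, plus strand) was read in both endothelial classes. Capitals mark TTTATG, a core that Cdx and posterior Hox proteins bind.
Hoxa11: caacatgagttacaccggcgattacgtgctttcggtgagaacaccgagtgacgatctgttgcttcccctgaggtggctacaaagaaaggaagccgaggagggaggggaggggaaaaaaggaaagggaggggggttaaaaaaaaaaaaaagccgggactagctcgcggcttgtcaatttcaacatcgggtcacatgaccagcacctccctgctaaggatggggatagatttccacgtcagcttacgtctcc
Hoxa5: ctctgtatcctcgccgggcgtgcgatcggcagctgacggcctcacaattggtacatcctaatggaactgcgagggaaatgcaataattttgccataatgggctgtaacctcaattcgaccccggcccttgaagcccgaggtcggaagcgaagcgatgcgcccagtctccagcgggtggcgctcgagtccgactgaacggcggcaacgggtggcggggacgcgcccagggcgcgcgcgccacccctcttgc
Hoxd8: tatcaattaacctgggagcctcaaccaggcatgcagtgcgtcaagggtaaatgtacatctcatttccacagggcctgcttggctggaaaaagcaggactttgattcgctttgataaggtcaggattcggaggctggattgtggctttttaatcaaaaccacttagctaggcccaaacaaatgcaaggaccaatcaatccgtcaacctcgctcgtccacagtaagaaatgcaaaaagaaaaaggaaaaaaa
Hoxd4: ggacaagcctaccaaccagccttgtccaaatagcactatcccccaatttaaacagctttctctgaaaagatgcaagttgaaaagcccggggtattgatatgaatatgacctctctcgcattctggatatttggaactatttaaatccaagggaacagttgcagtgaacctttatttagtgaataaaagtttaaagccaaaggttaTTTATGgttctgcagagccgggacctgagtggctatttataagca
Over the whole 300 bases (250 before to 50 after the start, both strands), TTTATG occurred in 5 of the 24 Hox windows and in 11.9% of 32851 promoters. The Hox-Pbx composite TGATTNAT occurred in 2 of 24 (3.22% of all promoters) and the Meis core TGACAG in 2 of 24 (19.2%). TGATTNAT and TTTATG can share bases by their letters, but no 2 matches overlapped in the Hox windows. The Hox windows held a median of 14.5 CpG dinucleotides against 7 over all promoters, and a median GC content of 57.7% against 52.7%. A match is only a run of letters, and nothing in these data shows binding.

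Cells held 45388 to 1046988 gene counts each (median 194180), spike-ins left out. Classes were rebuilt by clustering on marker genes and variable genes, with every gene of the 4 Hox loci and the Hox partner and regulator genes kept out, so that Hox levels did not define them; differences from other namings of these cells may come from that. The 19 clusters fell into 9 classes named from markers: visceral smooth muscle-like (554 cells), blood endothelium-like (363), fibroblast-like (218), pericyte-like (211), lymphatic endothelium-like (73), vascular smooth muscle-like (65), epithelium-like (59), glia-like (41) and immune-like (31). Counts were summed per mouse and class, for mice with at least 5 cells of the class, and given as counts of a gene per 1000000 gene counts (CPM); the mouse is the replicate. Smooth muscle and pericytes came only from the 3 ACTA2GFP:CSPG4dsRED mice, and lymphatic cells only from mice of other lines, so that class and line cannot be told apart between these groups. Mouse 20GG79:6, a male, gave 7 of the classes, vascular smooth muscle and lymphatic endothelium not among them. Blood endothelium of different mice fell into different clusters. Fewer cells with a gene and less RNA per cell cannot be told apart in a summed level, so the share of cells with at least 1 count is given beside it. Levels are compared between genes only as CPM per kilobase of exon.

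The colon wall read Hoxa, Hoxb and Hoxd genes, each class a different subset, and almost no Hoxc. A gene was counted as expressed in a class where its level averaged at least 5 CPM over mice and at least 10% of cells had a count. By this rule 20 of 39 Hox genes were expressed in at least 1 class, 19 in none and 0 in all 9. Visceral smooth muscle expressed 7 Hox genes (22.4% of all gene identifiers pass the rule there), fibroblasts 7 (23.8%), pericytes 6 (21.6%), vascular smooth muscle 5 (20.1%), blood endothelium 12 (22.2%), lymphatic endothelium 9 (19.9%), epithelium 13 (24.6%), glia 2 (19.6%) and immune cells 1 (19.1%). As shares of the 39 genes these counts are 17.9, 17.9, 15.4, 12.8, 30.8, 23.1, 33.3, 5.13 and 2.56% in the same order, above the background in the endothelial classes and epithelium and below it in the other 6 classes. Summed over all cells, the Hoxa genes took 80785 counts, Hoxb 39623, Hoxd 19923 and Hoxc 437, and Hoxc12 and Hoxd1 had 0 counts. Just inside the rule stood Hoxd4 in epithelium (5.45 CPM, 10.2% of cells) and Hoxa13 in pericytes (9.26 CPM, 10.4%), and just outside it Hoxa13 in vascular smooth muscle (29.8 CPM, 9.23%), Hoxa5 in blood endothelium (7.81 CPM, 8.54%) and Hoxa2 in glia (19.9 CPM, 7.32%).

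**Figure D1:**
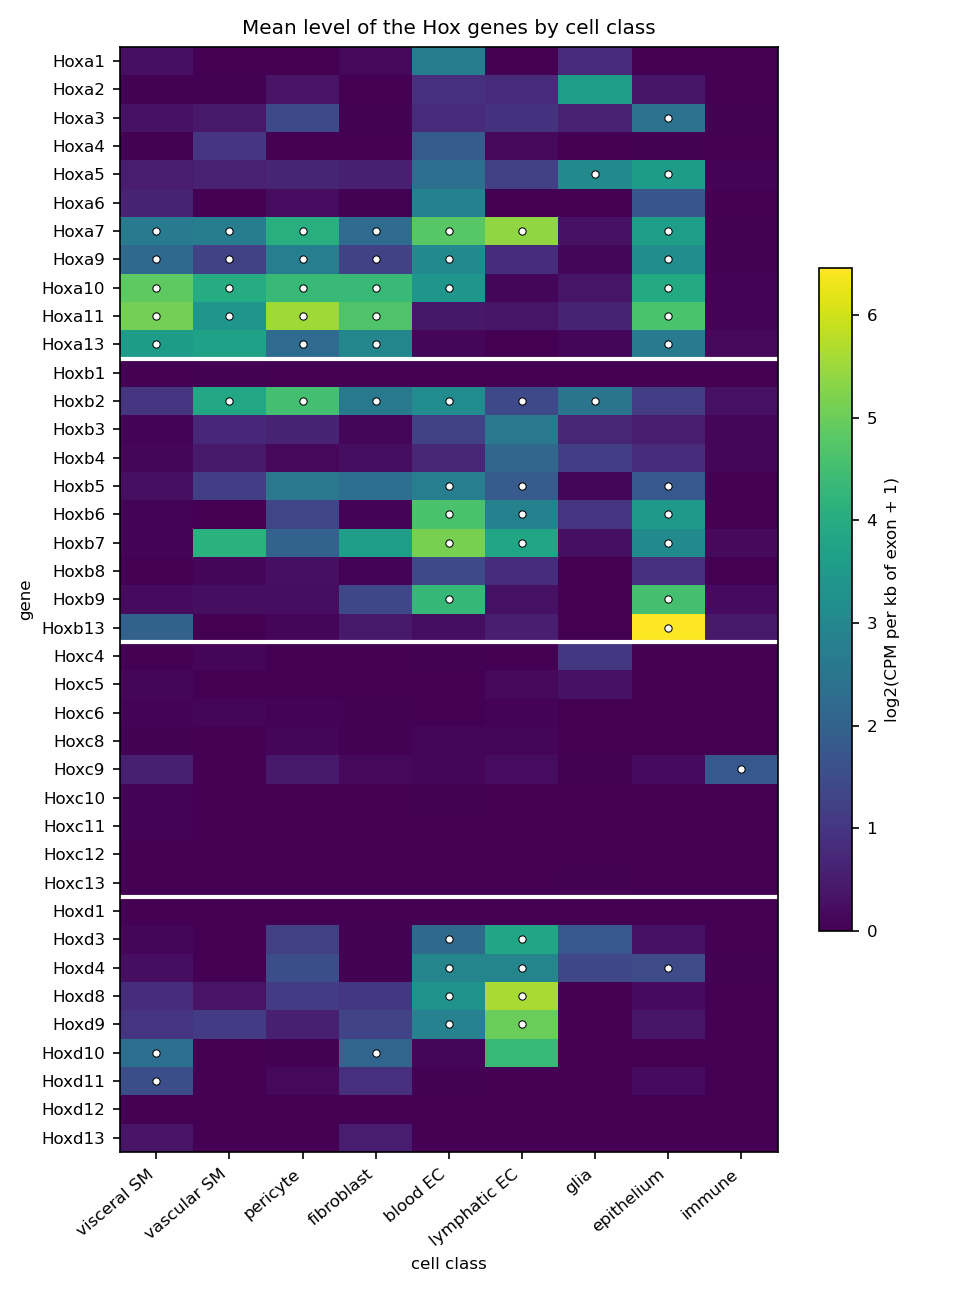
Level of every Hox gene (one row per gene) in the 9 cell classes (columns), as log2 of 1 plus the mean over mice of CPM per kilobase of exon; white dots mark genes expressed by the rule. The mesenchymal columns are filled at the posterior Hoxa genes, and the endothelial columns at Hoxa7, Hoxb5, Hoxb6, Hoxb7, Hoxd3, Hoxd4, Hoxd8 and Hoxd9. The blood endothelial column is also filled at Hoxa9, Hoxa10, Hoxb2 and Hoxb9. The Hoxc block is close to empty.

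The total Hox level differed between classes. It averaged 547 CPM in epithelium (SD 288, n = 5 mice), 521 in lymphatic endothelium (SD 228, n = 4) and 461 in blood endothelium (SD 64.8, n = 6). It was 386 CPM in pericytes (SD 88.7, n = 3), 269 in visceral smooth muscle (SD 77.3, n = 3), 227 in fibroblasts (SD 41.3, n = 3) and 212 in vascular smooth muscle (SD 90.1, n = 2). Neighbours in this order from epithelium to vascular smooth muscle had overlapping ranges over mice. Pericytes nevertheless stood above visceral smooth muscle in each of their 3 shared mice. The values were 413.3 against 353.1 CPM in 20GG79:1, 458.4 against 201.5 in 20GG79:6 and 287.2 against 251.1 in 20GG95:3. Differences in total level were not tested. Glia stood below all of these classes, at 118 and 51.7 CPM in their 2 mice, and immune cells lowest, at 4.36 and 14.9. Per cell, thinned to 45000 counts each, epithelial cells held 4.42 Hox genes on average, lymphatic cells 2.23, blood endothelial cells 2.11, glia 1.10 and immune cells 0.548; unthinned these means were 6.42, 3.97, 4.10, 2.34 and 1.87. Median depths of the classes ran from 123782 counts in pericytes to 277380 in fibroblasts.

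Visceral smooth muscle, the contractile coat of the gut, read the 5′ end of the Hoxa cluster. Hoxa10 and Hoxa11, posterior paralogs known from the hindgut, uterus and limb, were the highest, followed by Hoxa13, the last gene of the cluster and required for hindgut and genital tract formation. Hoxa10 was at 139.9 CPM in mouse 20GG79:1, 45.6 in 20GG79:6 and 89.6 in 20GG95:3, with counts in 57.4% of cells (exact 95% binomial interval 53.2 to 61.6%). Hoxa11 was at 100.6, 73.3 and 56.1 CPM in the same order (39.9% of cells), and Hoxa13 at 42.2, 20.4 and 18.6. All 3 genes were read in every mouse, with 20GG79:1 the highest each time. Hoxa7 (21.2, 9.22 and 14.6 CPM) and Hoxa9 (22.1, 13.7 and 24.1), mid-cluster genes of the trunk, were lower. From the Hoxd cluster, Hoxd10 (5.77, 3.62 and 13.2 CPM) and Hoxd11 (8.98, 4.69 and 10.9) were the only members expressed. Both were uneven within the class. In mouse 20GG95:3, a cluster of 99 visceral cells held Hoxd10 at 31.77 CPM (25.25% of cells) and Hoxd11 at 21.61 (23.23%). The other visceral clusters of that mouse (147, 53 and 23 cells) held Hoxd10 at 7.98, 3.11 and 0.268 CPM and Hoxd11 at 8.51, 5.15 and 0. Hoxd11, the paralog that acts with Hoxa11 in kidney and forelimb, was expressed in no other class by the rule. Fibroblasts came close, with Hoxd11 counts in 11.01% of cells and a mean of 3.629 CPM. Their Hoxd11 was at 10.84 CPM in 20GG79:1, 0.04466 in 20GG79:6 and 0 in 19CB38:5. Per kilobase, Hoxa11 made up 34.8% and Hoxa10 29.1% of the Hox level. Hoxb13 was at 6.36, 13.1 and 0.351 CPM, in 5.05% of cells; the summed epithelial markers of the same cells were at 42.7, 567 and 31.3 CPM, and their part in that level was not tested. Within mouse 20GG95:3 its 2 plates gave 87.6 and 91.5 CPM of Hoxa10 and 55.7 and 56.4 of Hoxa11. The same plates lay further apart for Hoxa7 (4.597 and 23.84 CPM), Hoxa9 (12.52 and 34.67) and Hoxa13 (27.12 and 10.79). Hoxd10 was at 15.68 and 10.97 CPM and Hoxd11 at 10.31 and 11.46. The cells also carried fibroblast markers, 5571 to 7789 CPM summed over the 8 genes.

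Fibroblasts of the ACTA2GFP:CSPG4dsRED mice also read the posterior Hoxa genes. Hoxa10 was at 83.8 CPM in 20GG79:1 and 65.9 in 20GG79:6 (71.6% of all fibroblasts with a count, interval 65.1 to 77.5%), Hoxa11 at 65.8 and 100.9 (62.8%), and Hoxa13 at 19.9 and 30.6. Hoxa7 was at 9.73 and 22.6, Hoxa9 at 18.9 and 4.91, and Hoxd10 at 6.91 and 10.4. The third mouse, 19CB38:5 of the ACTA2GFP line, gave 5 cells and differed: Hoxa10 was at 43.1 CPM, Hoxa11 at 1.23 and Hoxa13 at 0, while Hoxb7 was at 51.7 CPM against 0.0791 and 0.0447 in the other mice, Hoxb2 at 46.8 against 4.59 and 1.79, and Hoxb5 at 30.8 against 1.24 and 2.28. Mouse, line and chance among these 5 cells cannot be told apart. Hoxb2, which patterns the hindbrain, passed the rule for fibroblasts through that mouse: its share of cells (14.2%) was below that of immune cells (22.6%), which is the share taken here as background. Visceral smooth muscle and fibroblasts were compared in the 2 mice that held both. Of 18 Hox genes tested, 0 passed edgeR's quasi-likelihood test (0.651% of all 15512 genes did), 1 had an unadjusted p below 0.05, and DESeq2 also called 0 (8.08% of all genes). The median log2 difference, fibroblast minus visceral, was -0.0100 over the tested Hox genes and 0.0218 over all genes. For Hoxa11 the difference was -0.09 ± 0.43 (SE), for Hoxa10 -0.12 ± 0.47 and for Hoxa13 -0.26 ± 0.72.

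Pericytes, the mural cells of capillaries, combined the posterior Hoxa genes with an anterior Hoxb gene. Hoxa11 was at 111.9, 135 and 66.5 CPM in mice 20GG79:1, 20GG79:6 and 20GG95:3 (32.2% of cells), and Hoxa10 at 109.8, 22.8 and 58.8. Hoxb2 was at 99.8, 77.1 and 52.3 CPM, in 36.5% of cells (interval 30.0 to 43.4%), against 0.203, 8.30 and 1.96 in visceral smooth muscle of the same mice, so that the groups did not overlap. Hoxa7 was at 19.7, 76.7 and 38.5 CPM and Hoxa9 at 41.5, 42.4 and 13.9, while Hoxa13 was at 14.01, 0.269 and 13.5. Hoxd10 and Hoxd11, read in visceral smooth muscle, stayed at or below 0.109 and 0.539 CPM. Of the 17 Hox genes tested between pericytes and visceral smooth muscle, 0 passed edgeR's test (1.76% of 13544 genes did) and 8 had an unadjusted p below 0.05. Those with the smallest p were Hoxd10 (log2 difference -6.99 ± 1.54, adjusted p = 0.0945), Hoxb6 (5.41 ± 1.25, adjusted p = 0.105), Hoxb7 (6.37 ± 1.51, adjusted p = 0.113) and Hoxb2 (5.32 ± 1.30, adjusted p = 0.122), each in the same direction in 3 of 3 mice by edgeR with Benjamini-Hochberg adjustment. DESeq2 called 7 of them, Hoxb2, Hoxb5, Hoxb7, Hoxb6 and Hoxa3 higher and Hoxd10 and Hoxd11 lower in pericytes, while it called 12.6% of all genes. Pericyte cells also carried smooth muscle and fibroblast markers (4355 to 11416 and 2962 to 4092 CPM summed); their part in the pericyte Hox levels was not tested. In mouse 20GG95:3, the 28 cells of a pericyte-like cluster that only this mouse held had Hoxb2 at 7.30 CPM, against 67.9 and 50.3 CPM in its other pericyte clusters (87 and 12 cells).

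Vascular smooth muscle, the coat of arteries and veins, also held Hoxb2, at 49.9 CPM in 20GG79:1 (9 cells) and 42.9 in 20GG95:3 (56 cells), with counts in 49.2% of cells (interval 36.6 to 61.9%). The visceral values in those mice were 0.203 and 1.96 CPM, and 5.42% of visceral cells had a count. Of 19 Hox genes tested, 1 passed edgeR's test, Hoxb2 (log2 visceral minus vascular -6.24 ± 1.84, adjusted p = 0.0193, lower in 2 of 2 mice), where 4.58% of 14118 genes did. Hoxd10 (11.4 ± 4.50, adjusted p = 0.163), Hoxd11 (7.07 ± 3.10, adjusted p = 0.260) and Hoxc9 (8.74 ± 4.38, adjusted p = 0.367) had an unadjusted p below 0.05 without passing; their vascular levels were 0, at most 0.0976 and 0 CPM, so these fitted folds rest on a prior count. DESeq2 called 3 Hox genes (8.11% of all genes). With 2 mice this fit has 1 residual degree of freedom. Leaving out either mouse leaves 1 sum per class, whose spread is then taken from the other classes, and the call is lost. Of the other 11 alternatives the call was lost in 6: the spread shared over all classes (log2 -4.45), no filter on low counts, no mouse block, resolution 0.5, and without either plate of mouse 20GG95:3. The direction was kept in all 13. Hoxb2 shares 27.3% of its exon bases with the antisense Hoxb3os, at 62.7 CPM in pericytes and 39.1 in vascular smooth muscle; strand use in counting is not given, so reads there cannot be assigned to either gene. Hoxa10 (78.7 and 18.5 CPM), Hoxa13 (46.3 and 13.3), Hoxa11 (21.6 and 22.1) and Hoxa7 (23.8 and 7.91) were present too, and Hoxa9 (0 and 16.01) was read in a share of cells (15.4%) below that of immune cells (16.1%). Hoxb7 was at 50.8 CPM in the 9 cells of 20GG79:1 and 0 in 20GG95:3. Between pericytes and vascular smooth muscle 0 of 14 Hox genes passed (0.391% of 12011 genes by edgeR), 1 had an unadjusted p below 0.05 and DESeq2 called 0 (3.34% of all genes).

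**Figure D2:**
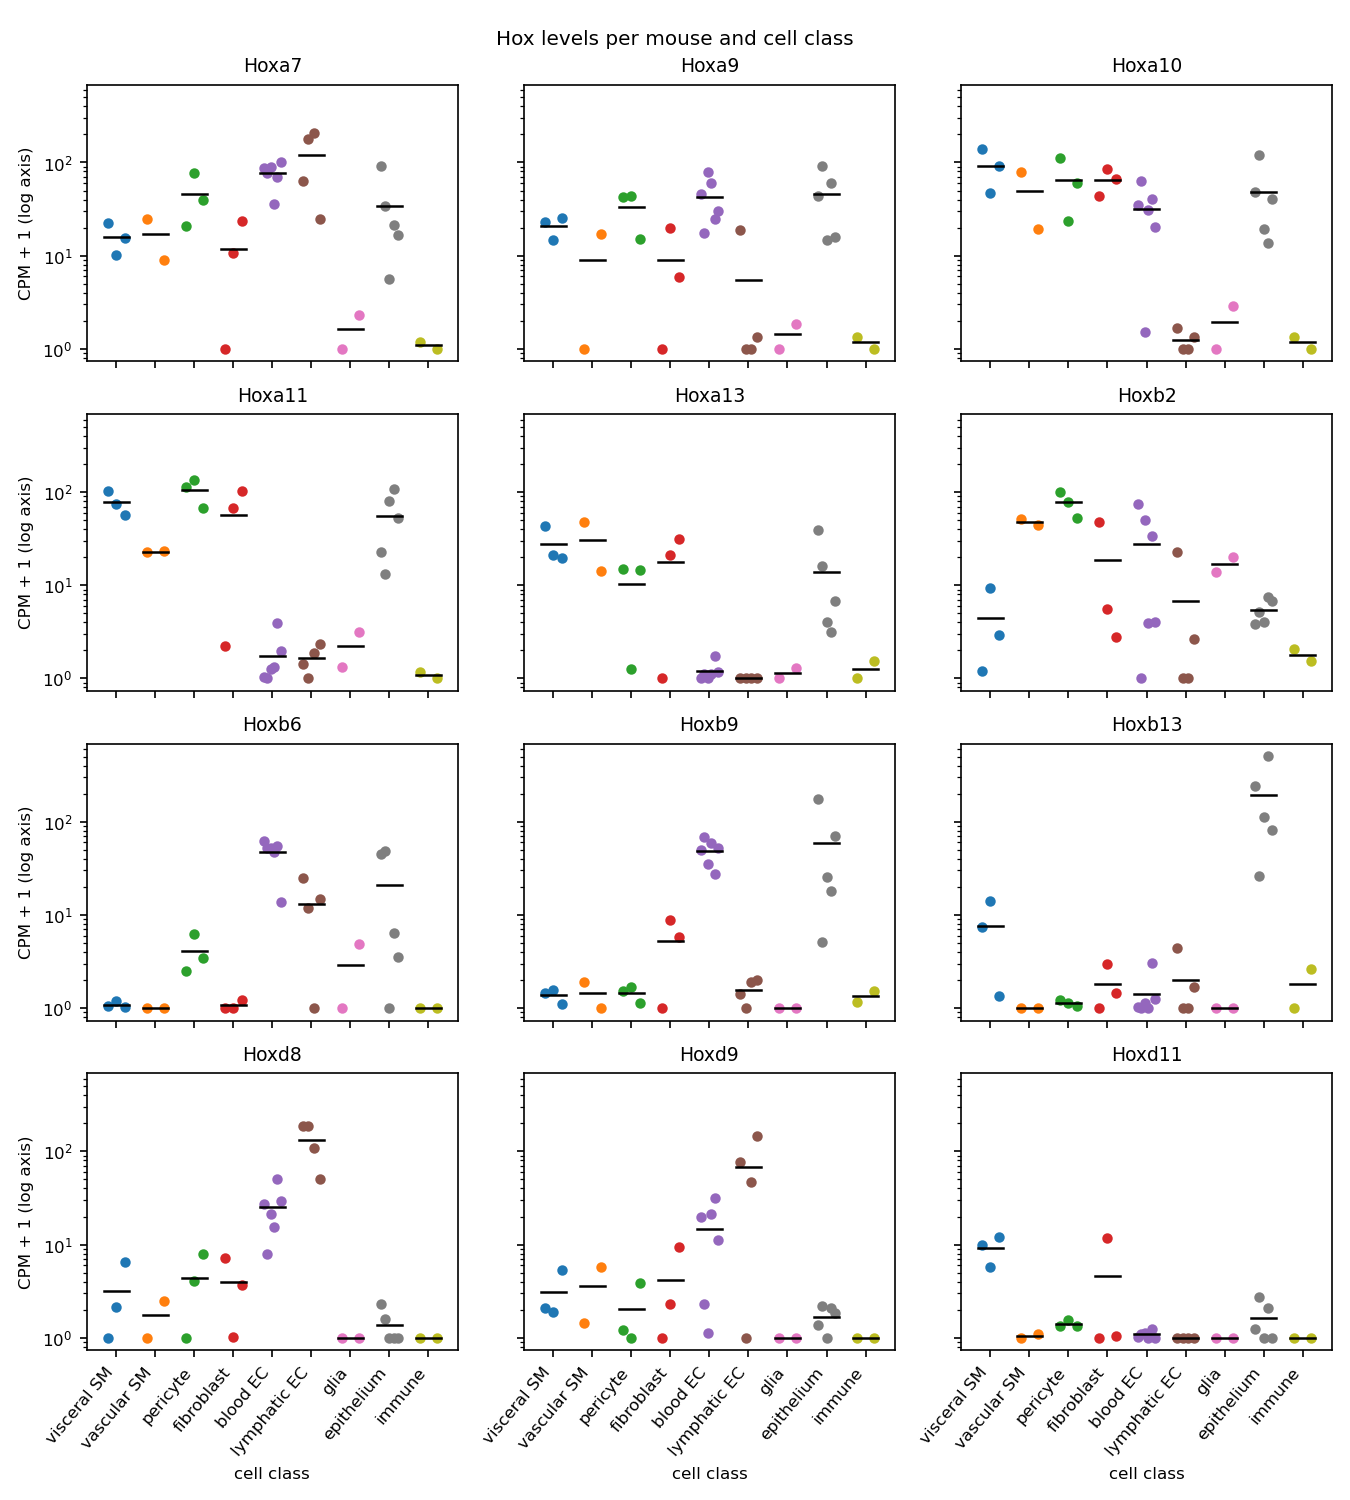
CPM + 1 (log axis) of 12 Hox genes (panels) in each mouse (points) by cell class (horizontal axis); a point is the summed counts of 1 mouse and class, and the bar marks the mean over mice. Hoxa11 points lie above 50 CPM in visceral smooth muscle and pericytes and at or below 2.92 in blood endothelium, and Hoxb2 points separate vascular smooth muscle and pericytes from visceral smooth muscle.

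Blood endothelium read mostly the middle of the clusters, with Hoxa10 as its one expressed gene among paralogs 10 to 13. Hoxb7, Hoxa7, Hoxb6 and Hoxb9 were its 4 highest genes per kilobase. Hoxa7 was at 35.1 CPM at the lowest, 81.5 at the median and 99.5 at the highest of 6 mice (47.1% of cells, interval 41.9 to 52.4%), Hoxb7 at 29.4, 53.4 and 79.8 CPM, Hoxb6 at 12.7, 51.6 and 60.5, and Hoxb9, a gene of the thoracic region, at 26.7, 50.03 and 67.7. These 4 were read in every mouse. Hoxb2 was uneven, at 72.8 CPM in 17E61:24, 49.4 in 18CB39:3 and 33.2 in 19CB4:5, but at most 3.07 in the other 3 mice. Hoxb5 was at 0.398 to 38.4 CPM, Hoxa9 at 16.6 to 77.7 and Hoxa10 at 0.531 to 62.2. From the Hoxd cluster, Hoxd3 (4.52 to 31.3 CPM), Hoxd4 (4.97 to 38.3), Hoxd8 (7.00 to 49.0) and Hoxd9 (0.133 to 30.9) were expressed. Lymphatic markers in these cells summed to 1785 CPM in 19CB4:5 and 2065 in 20GG79:6, against 196 to 410 in the other mice. Hoxd8 was at 49.0 and 28.1 CPM in these mice and at 7.00 to 26.5 in the others. The part of lymphatic RNA in these levels was not tested. Hoxd3 and Hoxd4 share 62.9 and 52.3% of their exon bases with other annotated genes, each other included, so their counts cannot be fully parted. Of the posterior genes, Hoxa10 was thus expressed, whereas Hoxa11 did not pass 2.92 CPM and Hoxa13 did not pass 0.745 in any of the 6 mice. Within mouse 17E61:24 the 2 plates gave 74.5 and 70.9 CPM of Hoxb2, but 55.0 and 10.1 of Hoxa10.

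Only mouse 20GG79:6 held both visceral smooth muscle and blood endothelium, so the paired test fixed for that comparison could not be made, and the alternative with 1 fit over the 30 sums of all classes (mouse and class as terms, 12 residual degrees of freedom) is given. Mice of the other lines are linked to the ACTA2GFP:CSPG4dsRED mice through that animal alone. In this fit 1 of 29 Hox genes passed, Hoxa11 (log2 visceral minus blood endothelium 6.83 ± 1.51, adjusted p = 0.0365, edgeR; 0.579% of 18138 genes passed), and 10 had an unadjusted p below 0.05. DESeq2 called 5 (5.73% of all genes). Within 20GG79:6, Hoxa11 was at 73.3 CPM in visceral smooth muscle and 0.963 in blood endothelium, and outside it at 100.6 and 56.1 against 0 to 2.92, without overlap. The Hoxa11 call was lost in 8 of 17 alternatives, among them leaving out mouse 17E61:24, 19CB27:3, 20GG79:1 or 20GG95:3, with log2 values between 6.56 and 7.03 in all 17; with no filter on low counts Hoxb7 passed in its place. Hoxb9 pointed the other way (log2 -6.98 ± 1.78, adjusted p = 0.0720, edgeR), at 0.560 CPM in visceral smooth muscle and 50.9 in blood endothelium of 20GG79:6. Hoxa11 shares 34.98% of its exon bases with the antisense Hoxa11os, which stood at 63.3 CPM in visceral smooth muscle, 88.4 in pericytes and 184.5 in epithelium.

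Lymphatic endothelium was led by genes of the Hoxd cluster. Hoxd8, a target of the lymphatic regulator Prox1 in cultured cells, was its highest gene per kilobase: 185 CPM in 17E61:24, 188.6 in 18CB109:10, 106.7 in 18CB39:3 and 49.0 in 19CB27:3, against 26.5, 7.00, 20.3 and 14.6 CPM in blood endothelium of the same mice, higher in 4 of 4. It was detected in 47.95% of lymphatic cells (interval 36.1 to 60.0%), 30.9% of blood endothelial cells and 0 of 31 immune cells, which allows a share of up to 9.68%. Hoxa7 was at 62.8, 179, 207 and 23.5 CPM, from below to above the blood endothelial range. Hoxb7 was at 58.1, 0.644, 3.59 and 18.5 CPM, Hoxb6 at 23.9, 10.9, 0 and 13.8, Hoxb5 at 16.5, 0, 12.6 and 0, and Hoxd4 at 19.3, 13.5, 38.6 and 7.38. Hoxa7, Hoxb7 and Hoxd4 were thus read in all 4 mice, although Hoxb7 rested on 1 count in 18CB109:10 and 4 in 18CB39:3. Hoxd9 was at 76.8, 0, 45.8 and 145.9 CPM, so that 1 mouse with 5 cells had none. Hoxd3 and Hoxd10 rested on mouse 18CB39:3 (8 cells), at 180.3 and 136.3 CPM against at most 24.8 and 1.99 elsewhere. Hoxb9 was at 0.411, 0, 0.897 and 1.01 CPM, against 49.2, 67.7, 34.1 and 58.1 in the matched blood endothelium, lower in 4 of 4 mice and without overlap. Of 14 Hox genes tested between the endothelial classes, 0 passed edgeR's test (2.04% of 9472 genes did) and 3 had an unadjusted p below 0.05: Hoxb9 (log2 lymphatic minus blood -6.63 ± 1.76, adjusted p = 0.0875), Hoxa9 (-6.51 ± 2.33, adjusted p = 0.240) and Hoxd8 (2.88 ± 1.12, adjusted p = 0.298). DESeq2 called the same 3 genes in the same directions (16.1% of all genes). Hoxb2 in lymphatic cells, with counts in 23.3% of cells, was found in 2.74% after thinning, below the 6.45% of thinned immune cells.

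**Figure D3:**
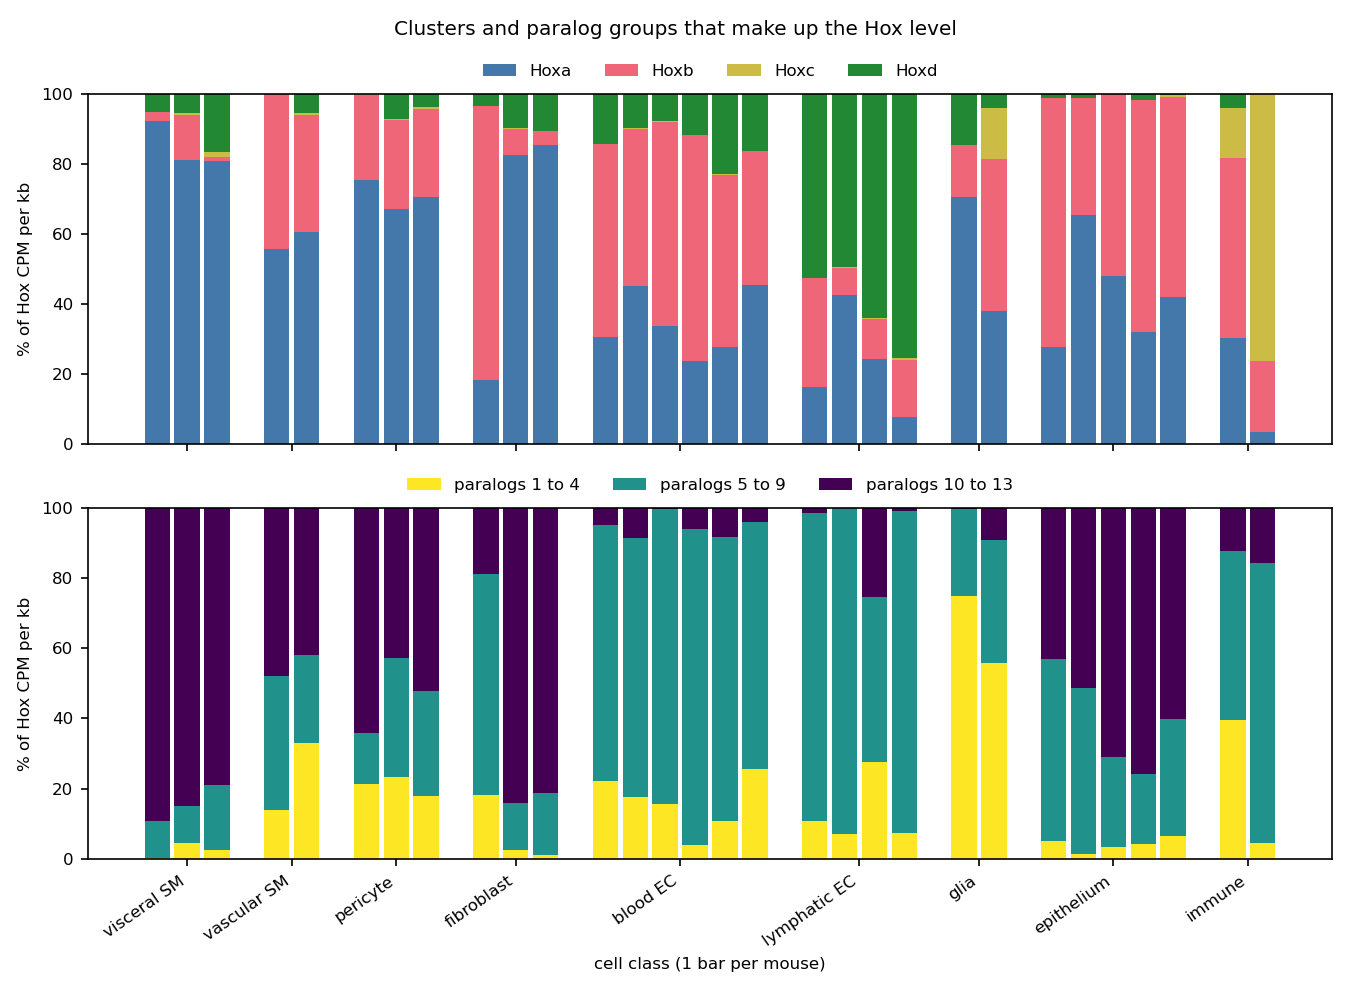
Make-up of the Hox level (CPM per kilobase) in percent, with 1 bar per mouse in each class: the share of each cluster (upper panel) and of paralogs 1 to 4, 5 to 9 and 10 to 13 (lower panel). Hoxd makes up 49.5 to 75.5% of the level in the 4 lymphatic bars, and paralogs 10 to 13 make up 78.96 to 89.2% in visceral smooth muscle.

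The glial profile was short and anterior. Hoxa5, which patterns the neck and thoracic level, was at 22.2 CPM in 19CB27:3 (15 cells) and 6.30 in 20GG79:6 (21 cells), and Hoxb2 at 13.1 and 18.9. Hoxa2, the most anterior Hox gene of the hindbrain, was at 39.8 CPM in 19CB27:3 and 0 in 20GG79:6, from 3 of 41 cells, Hoxd3 at 19.9 and 0.287, and Hoxd4 at 7.50 and 2.01. Paralogs 1 to 4 made up 75.02 and 55.9% of the glial Hox level in the 2 mice, and paralogs 10 to 13 0.285 and 9.03%. Hoxa10 and Hoxa11 did not pass 1.86 and 2.15 CPM, and their fibroblast levels are given above. The glial cells also carried fibroblast markers at 1586 and 4002 CPM summed, and the part of such RNA in the glial Hox levels was not tested. Glia and fibroblasts shared only mouse 20GG79:6, where Hoxa11 was at 2.15 and 100.9 CPM. In the fit over all classes 0 of 29 Hox genes passed (0.0772% of 18138 genes did), 8 had an unadjusted p below 0.05, led by Hoxa11 (log2 -5.85 ± 1.59, adjusted p = 0.230, edgeR) and Hoxa10 (-5.33 ± 1.60, adjusted p = 0.259), and DESeq2 called 5 (6.99% of all genes).

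Epithelium expressed 13 Hox genes by the rule, close to the 12 of blood endothelium, and was led by Hoxb13. Its level was 238 CPM in 17E61:24 (31 cells), 25.2 in 18CB155:7 (5 cells), 110.2 in 19CB27:3 (6), 502.5 in 19CB4:5 (6) and 81.4 in 20GG79:6 (6), with counts in 57.6% of cells (interval 44.1 to 70.4%). Outside epithelium no class passed the rule for Hoxb13; visceral smooth muscle at a mean of 6.62 CPM came next. Hoxb9 was at 176, 4.10, 24.5, 17.1 and 69.0 CPM in the same order of mice, Hoxa11 at 21.6, 12.3, 79.6, 105.8 and 52.4, and Hoxa10 at 47.1, 118.4, 18.4, 12.8 and 39.9. The mid-cluster Hoxa7 was at 89.9, 32.8, 4.59, 20.3 and 15.8 CPM and Hoxa9 at 42.2, 91.4, 13.8, 59.9 and 14.96. Hoxa13 ranged from 2.14 to 38.1 CPM, Hoxa5 from 0 to 68.4, Hoxb5 from 0 to 18.4, Hoxb6 from 0 to 47.5 and Hoxb7 from 0 to 50.6, so that Hoxa7 and Hoxa9 were read in every mouse and Hoxa5, Hoxb5, Hoxb6 and Hoxb7 were not. Hoxa3, an anterior gene of the pharyngeal region, was expressed by the rule in epithelium alone, at 47.1, 0, 18.4, 28.9 and 37.4 CPM and in 45.8% of cells, but 27.1% of its exon bases are shared with other transcripts of the locus. The Hoxd genes made up at most 1.88% of the epithelial Hox level. Epithelial cells also carried fibroblast markers at 95.1 to 7081 CPM and visceral smooth muscle markers at 123.2 to 4464, highest in 20GG79:6; the part of such RNA in their Hoxa10 and Hoxa11 levels was not tested. The fit over all classes, which links the other lines through 20GG79:6 alone, gave folds whose sign went against the means for 7 of 29 Hox genes here, 4 in the glial comparison and 5 in that of visceral smooth muscle with blood endothelium, and for Cdx1 (log2 epithelium minus fibroblast -0.99 ± 2.46, at means of 495 and 1.12 CPM). Its folds and its lack of calls are to be read with that limit. In this fit against fibroblasts 0 of 29 Hox genes passed by edgeR (0% of 18138 genes), 4 had an unadjusted p below 0.05, and DESeq2 called 3 (4.6% of all genes): Hoxb13, Hoxa3 and Hoxb9, all higher in epithelium. For Hoxb13 the log2 difference was 7.64 ± 2.42 (adjusted p = 0.266, edgeR), with 191.5 CPM on average in epithelium and 0.808 in fibroblasts, without overlap.

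Immune cells, with Ptprc in every cell and Cd74 and C1qa in 96.8%, served as the class that should lack most Hox genes of the gut wall. Hoxc9 was the only gene to pass the rule, at 0.523 CPM in 19CB27:3 (20 cells) and 11.2 in 20GG79:6 (5 cells), so that it rests on the latter mouse. The other Hox genes, with Hoxb13, Hoxb2, Hoxb9 and Hoxb7 next per kilobase, averaged at most 0.798 CPM there, and 19 had 0 counts, while up to 22.6% of cells held a count of Hoxb2. Of the 61 gene and class pairs expressed by the rule, 2 had a share of cells at or below that of immune cells, Hoxa9 in vascular smooth muscle and Hoxb2 in fibroblasts, and after thinning again 2, Hoxb2 in fibroblasts and in lymphatic endothelium. Hoxc genes outside immune cells stayed below the rule in every class.

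Weighted by level per kilobase, the mean paralog number differed between classes, with overlapping ranges among several of them. It was 10.6, 10.4 and 9.98 in visceral smooth muscle of the 3 mice and 9.08 to 10.99 in epithelium of 5. Fibroblasts were at 10.3 in both ACTA2GFP:CSPG4dsRED mice and 6.398 in 19CB38:5. Pericytes (7.59 to 8.43) and vascular smooth muscle (8.36 and 7.32) overlapped each other, and all their values lay below those of visceral smooth muscle. Lymphatic endothelium lay at 6.99 to 7.93, blood endothelium at 5.97 to 7.35, and glia at 3.11 and 4.32, below every other class. The lymphatic range overlapped those of pericytes, vascular smooth muscle and blood endothelium, and that of epithelium overlapped visceral smooth muscle. Immune cells, with the lowest Hox level, lay at 6.10 and 9.32. The Hoxa cluster made up 80.7 to 92.1% of the level in visceral smooth muscle, the Hoxb cluster 38.1 to 64.3% in blood endothelium and 24.2 to 25.3% in pericytes. These values describe the same sums as above and were not tested.

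**Figure D4:**
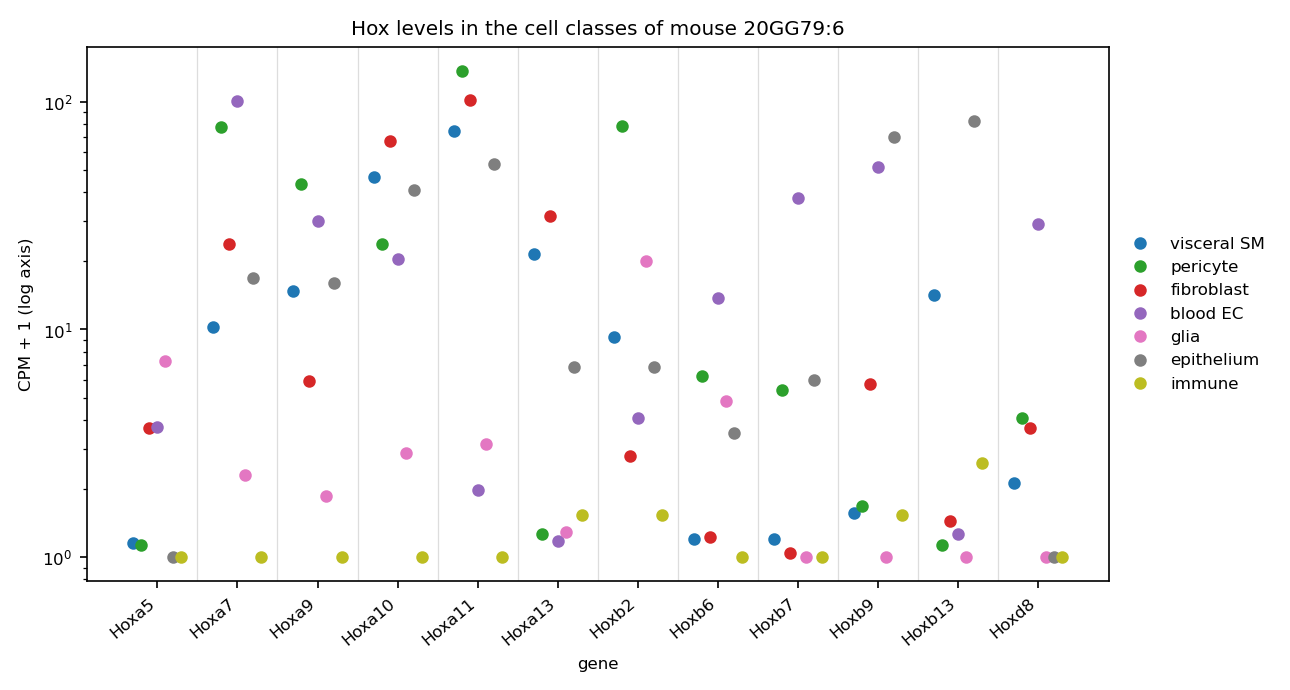
CPM + 1 (log axis) of 12 Hox genes in the 7 cell classes of mouse 20GG79:6, 1 point per class. Hoxa11 is at 52.4 CPM or more in visceral smooth muscle, pericytes, fibroblasts and epithelium and at 2.15 or less in blood endothelium, glia and immune cells of the same animal.

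Mouse 20GG79:6 gave 71 visceral smooth muscle cells, 29 pericytes, 74 fibroblasts, 36 blood endothelial cells, 21 glia, 6 epithelial and 5 immune cells, and so held line, sex and animal fixed. Hoxa11 was at 73.3, 135, 100.9, 0.963, 2.15, 52.4 and 0 CPM in that order. Hoxb9 was at 0.560, 0.674, 4.73, 50.9, 0, 69.0 and 0.532 CPM. Hoxd8 was at 1.12, 3.10, 2.68, 28.1, 0, 0 and 0 CPM. Hoxb2 was at 8.30, 77.1, 1.79, 3.07, 18.9, 5.82 and 0.532 CPM. The animal thus showed Hoxa11 in its mesenchyme and epithelium, Hoxb9 in its blood endothelium and epithelium, and Hoxd8 at its highest in blood endothelium. Hoxa10 did not part pericytes from blood endothelium in this way, at 22.77 and 19.35 CPM. Hoxa13 was at 0.269 CPM in its pericytes and 0.175 in its blood endothelium. The 6 epithelial cells carried fibroblast markers at 7081 CPM summed, whose part in their Hoxa11 level was not tested. With 1 animal there is no replicate check of these differences.

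**Figure D5:**
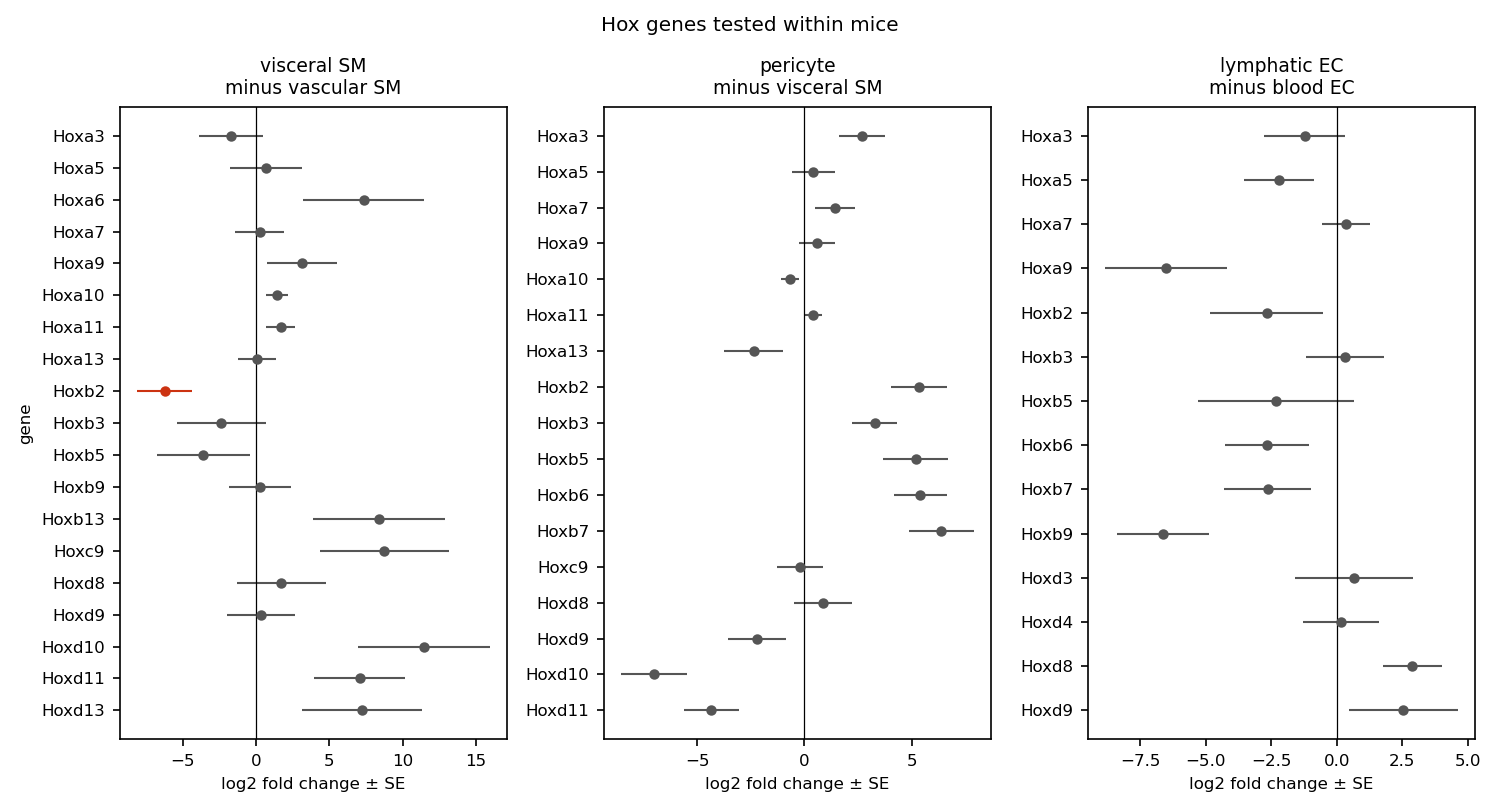
Log2 differences (points) with standard errors (bars) of the tested Hox genes in 3 comparisons within mice: visceral minus vascular smooth muscle, pericyte minus visceral smooth muscle, and lymphatic minus blood endothelium. Red marks an adjusted p below 0.05, which Hoxb2 alone reached, at -6.24 in the first panel.

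The genes that work with or on Hox proteins were read from lists of 9 partner and 23 regulator genes, all found in the table. In each of the 8 comparisons 0 partner and 0 regulator genes passed edgeR's test. Closest was Meis1, a cofactor of Hox proteins, at 170.4 and 174.0 CPM in vascular smooth muscle against 32.1 to 52.2 in visceral smooth muscle (log2 visceral minus vascular -1.87 ± 0.62, adjusted p = 0.0564, edgeR). Partner levels varied by class: Meis3 averaged 92.4 CPM in visceral smooth muscle (SD 45.8, n = 3) and 0.863 in blood endothelium (SD 1.28, n = 6), and Meis2 131.2 in lymphatic endothelium (SD 72.5, n = 4). The highest Meis3 mean was that of immune cells, 142.8 CPM, from 12.4 and 273.3 in their 2 mice. Cdx1 averaged 495 CPM in epithelium (36.6 to 1132 over 5 mice, 86.4% of cells) and Cdx2 57.0 (0 to 127 CPM). Among regulators, the Polycomb gene Cbx7 averaged 203 CPM in visceral smooth muscle (SD 20.8, n = 3) and 13.6 in lymphatic endothelium (SD 15.2, n = 4), and the activator Kmt2a averaged between 25.3 and 113 CPM over the 9 classes.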

How the data were processed

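Single cells were measured with full-length Smart-Seq2. The authors deposited raw read counts per gene and cell; per the submitters' processing notes these involved bcl2fastq, Bowtie, Bowtie2, Subread and featureCounts with GRCm38 and mm10, without versions, roles or strand use. Symbols and exon lengths for 46005 of 46517 gene identifiers came from a GENCODE annotation. All 1615 cells were kept, with 45388 to 1046988 gene counts each, and the 92 spike-ins were left out of totals.

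Classes came from Leiden clustering (scanpy 1.11.5, 20 components, 15 neighbours, resolution 1). No doublet caller was run; an alternative left out 47 mixed cells, those in which 2 or more markers of a foreign class exceeded the median of that class. Sums of raw counts over the cells of a mouse in a class (at least 5 cells) were tested with edgeR 4.0.16 (quasi-likelihood, robust, TMM, low counts filtered, mouse as a block) in R 4.3.3, with Benjamini-Hochberg adjustment over all tested genes not used for clustering. The pairing comes from the labels, since the classes compared share the same mice. Visceral smooth muscle against blood endothelium, glia against fibroblasts and epithelium against fibroblasts shared 1 mouse only, so the fit fixed for them was not made and the listed alternative, 1 fit over all 30 sums, stands in its place. On simulated counts for visceral against vascular smooth muscle (15877 genes), 76 of 100 genes with a log2 change of 3 and 100 of 100 with a change of 5 were recovered. The simulation gave every gene the same spread, had no mouse effect and changed only the more highly expressed genes. Its shares therefore do not carry over to low or more variable genes, Hox genes among them.

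Hox genes were described, by values or ranges, if expressed in a class, passing a comparison or among the 5 highest per kilobase of a class; partner and regulator genes were counted and the few nearest a call or of known role given. The members and lists were chosen with earlier results of these data known. Meis1, Meis2, Meis3, Cdx1, Cdx2, Cbx7 and Kmt2a were named after their values were seen. Alternatives were DESeq2 1.42.0, other normalization, filter, block, clustering resolution, depth, plates and left-out mice. Binomial intervals and limits at 0 counts cover counting error only. Each mouse is 1 animal. In the fits with mouse as a block, p-values rest on the spread left after class and mouse are fitted. In the fit over all classes, that spread was shared over all classes.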

Additional observations from a re-analysis of the deposited data

Results flagged for a closer look

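In 34 groups of 4 to 10 mice, 4 held a mouse whose gap to its nearest neighbour was above Dixon's 95% critical value, where chance gives about 1 in 20. In blood endothelium, Hoxa7 was low in mouse 19CB27:3 (35.09 CPM), Hoxa10 in 18CB39:3 (0.5312 CPM) and Hoxb6 in 20GG79:6 (12.7 CPM). In epithelium, Hoxa3 was at 0 CPM in 18CB155:7, which gave 5 cells.

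Of 50 other annotated transcripts of the Hox loci, which are not Hox genes by the naming rule, 18 passed 5 CPM and 10% of cells in at least 1 class. Most were highest in epithelium: Hoxa11os at 184.5 CPM, Gm53 at 65.81, Hoxaas3 at 33.66, Gm27543 at 27.76, Hottip at 20.98, Gm28308 at 15.3, Gm27695 at 11.34, Gm27492 at 8.469, Gm28032 at 8.286 and Mir196b at 5.516. Blood endothelium held the highest level of Hotairm1 (28.23 CPM), Gm28230 (9.15), Gm27868 (7.141), Gm27867 (6.972) and Gm27477 (6.083). Hoxb3os was highest in pericytes (62.72 CPM), Hoxd3os1 in lymphatic endothelium (29.63) and Gm28309 in visceral smooth muscle (5.815). Several of these overlap exons of Hox genes, so their reads and those of the neighbour cannot be told apart.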

How the results depend on the processing

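Counts of called Hox genes stayed within 1.5 times the reported count in 88 of 114 alternatives, counts of expressed genes in 69 of 83, and mean paralog numbers moved by less than 1 SD in all 9 tried. The reported count of calls was 0 in most comparisons, so the first of these shares says little of how firm a call was. Fold changes were rerun for Hoxb2 (13 alternatives) and Hoxa11 (17) only. Neither reversed, but the Hoxb2 call was lost in 8 of 13 and the Hoxa11 call in 8 of 17. For visceral against vascular smooth muscle (1 called), DESeq2 gave 3 and resolution 2 gave 2, while 0 were called with no filter, with the spread shared over all classes, without either plate of mouse 20GG95:3 or without either mouse; at resolution 0.5 the called gene was Hoxb7, not Hoxb2. For visceral smooth muscle against blood endothelium (1 called), DESeq2 gave 5, leaving out mixed cells 2, and cells with at least 100000 counts, resolution 0.5 or leaving out 1 plate of mouse 20GG95:3 gave 0; leaving out a mouse gave 0 to 1. Without the mouse block, the counts were 0 for visceral against vascular smooth muscle, 9 against blood endothelium, and 1 each for pericytes against visceral smooth muscle and lymphatic against blood endothelium (0 each with it); the block comes from shared animals. DESeq2 called 7 for pericytes against visceral smooth muscle, 3 for lymphatic against blood endothelium, 5 for glia and 3 for epithelium against fibroblasts, where edgeR called 0; a spread shared over all classes gave 2 (Hoxb9 and Hoxa10) for the endothelial pair. The cause of these differences was not tested.

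With thresholds of 1 CPM and 5% of cells, vascular smooth muscle expressed 9 Hox genes, lymphatic endothelium 16 and glia 8. With 20 CPM and 25%, visceral smooth muscle expressed 2, vascular smooth muscle 3, pericytes 3, fibroblasts 2, blood endothelium 7, lymphatic endothelium 4, epithelium 7, and glia and immune cells 0. After thinning, fibroblasts expressed 3. Leaving out 1 mouse gave 6 to 7 in visceral smooth muscle, 6 in vascular smooth muscle, 5 to 7 in pericytes, 6 to 7 in fibroblasts, 12 to 13 in blood endothelium, 8 to 11 in lymphatic endothelium, 2 to 3 in glia, 11 to 13 in epithelium and 0 to 1 in immune cells; this alternative alone was chosen after seeing the data. Visceral smooth muscle against blood endothelium gives no value without mouse 20GG79:6.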
